A study of Mus musculus with 6 samples.

Results

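A set of 32 lysosome and autophagy genes was followed in mouse colon carcinoma cells: 18 genes of the autophagy machinery, the transcription factor gene Tfeb and the lysosomal channel gene Mcoln1, the membrane protein genes Lamp1 and Lamp2, and 10 genes of lysosomal hydrolases and their activators. The members were chosen by name and function, with earlier results of these data known. Every probe whose platform symbol or synonym was a member was taken, which gave 64 of the 45281 probes on the array. Of the 32 genes, 29 had a probe that was detected (detection p-value below 0.01) on at least 2 of the 6 arrays and were tested among 8909 genes in all.

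The cells were MC38, a line of C57Bl/6 background, profiled on 6 Illumina bead arrays with 2 arrays per group. Control cells were kept in normal growth medium with no treatment. Unstimulated cells were kept in reduced serum, starved for 16 h, and received no protein. Stimulated cells were starved in the same way for 16 h and exposed for 6 h to S100A8/A9 at 10 µg/mL, a pair of calcium-binding proteins that myeloid cells release. Both starved groups therefore differ from control in medium, and stimulated cells differ from unstimulated cells in the protein. Whether the unstimulated cells stayed in reduced serum for the further 6 h is not stated, so time in reduced serum may differ as well. The labels do not say whether the replicates were separate cultures, and every p-value below therefore rests on a spread between arrays that may be technical.

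Autophagy encloses part of the cytoplasm in a double membrane and delivers it to the lysosome, where acid hydrolases break it down. The ULK kinases and Atg13 start the process, a lipid kinase complex built on Beclin 1 marks the membrane, WIPI proteins read that mark, and a pair of ubiquitin-like conjugation systems attaches LC3 and GABARAP proteins to the growing membrane. In nutrient-poor cells the factor TFEB and its relatives move to the nucleus and bind E-boxes with the core CACGTG in promoters of lysosomal and autophagy genes.

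Each array had a median raw signal between 90.2 and 97.4 and between 14877 and 16176 detected probes. The correlation over genes was 0.991 to 0.992 within groups, 0.989 to 0.990 between both starved groups, and 0.961 to 0.963 between control and starved arrays. Of 14 colon epithelial markers with a probe, 0 were detected on all 6 arrays and 10, among them Epcam, Krt8, Krt18, Krt19, Cdx2 and Vil1, were detected on none, with a summed signal of 356 to 414. Of 12 fibroblast and mesenchymal markers, 6 (Vim, Col3a1, Dcn, Pdgfra, Pdgfrb and S100a4) were detected on all 6 arrays and 3 on none. Their summed signal was 17320 and 22650 in control, 30942 and 37146 in unstimulated, and 35904 and 32522 in stimulated cells, so it moved with starvation as the members below did, and its part in the results was not tested. Of 10 leukocyte markers with a probe, Cd14 was detected on all 6 arrays and 7, among them Ptprc, Adgre1, Csf1r and Itgam, on none. Their sum was 717 to 802 in control and unstimulated and 1000 and 1018 in stimulated cells. Only Cd14 of this list was tested, and the others were each detected on 1 array or none. Cd14 had a log2 difference of 0.62, stimulated minus unstimulated (limma, adjusted p 0.262). All 5 endothelial markers were undetected, with a sum of 135 to 154.

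Promoters carrying the core CACGTG are shown first, because this E-box is the site through which TFEB is known to act. In the RefSeq mouse sequences of build GRCm38.p6, 27 of the 32 members had a promoter (Atg12, Becn1, Atg16l1, Map1lc3a and Ctsb had no entry). The core was searched in the 250 bases before each start. CACGTG reads the same on both strands, and a gene with several starts counts once if any of its promoters holds the core. It was found in 10 of 27 members, or 37.0%, against 1854 of 27025 genes, or 6.86%. The extended form TCACGTG, searched on either strand and always overlapping the core, was found in 8 of 27 members (29.6%) and in 3.58% of all genes. By role, the core was present in 5 of 9 hydrolase genes and 3 of 14 machinery genes, and in Mcoln1 and Lamp1. Stretches of 80 bases on the strand of the gene are given for 4 members that hold the core, 2 that rose with starvation (Mcoln1 and Glb1) and 2 without a call (Lamp1 and Ctsd), with each CACGTG in capitals. They lie at chr8:3500429-3500508 on the plus strand (Mcoln1), chr9:114400985-114401064 on the plus strand (Glb1), chr8:13159081-13159160 on the plus strand (Lamp1) and chr7:142387891-142387970 on the minus strand (Ctsd).
Mcoln1: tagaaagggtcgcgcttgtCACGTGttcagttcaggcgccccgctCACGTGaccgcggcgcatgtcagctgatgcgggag
Glb1: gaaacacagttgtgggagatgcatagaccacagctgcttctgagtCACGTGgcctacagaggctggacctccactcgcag
Lamp1: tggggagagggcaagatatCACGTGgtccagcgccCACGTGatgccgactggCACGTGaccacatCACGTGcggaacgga
Ctsd: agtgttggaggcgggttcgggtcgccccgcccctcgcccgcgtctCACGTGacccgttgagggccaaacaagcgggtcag
Mcoln1 holds the core 2 times and Lamp1 4 times in these stretches. A match is a description of letters and no evidence of binding.

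After starvation, 14 of the 29 tested members rose and 0 fell (limma, adjusted p below 0.05 over 8909 genes). At an unadjusted p below 0.05, 18 were higher and 1 was lower, beside 2016 higher and 1762 lower of 8909 genes. Over all tested genes, 30.8% were called in this comparison, 17.1% higher and 13.7% lower, beside 48.3% of the members, all of them higher. The median log2 difference, unstimulated minus control, was 0.49 over the members (range -0.48 to 1.36) and 0 over all genes. Of the 29, 25 had groups that did not overlap, beside 68.5% of all genes. Gabarapl2 is counted in the 18 and the 25. It passed the filter only through the starved groups, where it is high, so it adds no support to either count. When 1 array was left out, 6 to 14 members were called higher: 7 without control replicate 1, 9 without control replicate 2, 7 without unstimulated replicate 1 and 6 without unstimulated replicate 2. Atg13, Map1lc3b, Wipi1, Mcoln1 and Neu1 were called in each of those 6 fits. Without unstimulated replicate 1, Ctsa was no longer called (adjusted p 0.0505), and Glb1 was not called without control replicate 1 and without unstimulated replicate 2 (highest adjusted p 0.0599). Ulk2, Gabarap, Sqstm1 and Uvrag lost theirs without any 1 of the 4 control and unstimulated arrays, and Map1lc3a, Lamp2 and Ctsb without 3 of those 4. RNA was measured in bulk, where fewer cells of a type and less RNA per cell cannot be told apart.

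Among the genes that start autophagy, the clearest rise was in Atg13, the partner of the ULK kinases. Its normalized log2 intensity was 8.19 and 8.49 in control, 9.09 and 9.28 in unstimulated, and 9.40 and 9.34 in stimulated cells. All starved arrays lay above both control arrays, and the rise with starvation was 1.80-fold (log2 0.84 ± 0.16 SE, adjusted p 0.00527). Ulk2, a kinase of the same complex, was at 9.40 and 9.29 in control and 9.98 and 9.92 in unstimulated cells, a log2 rise of 0.60 ± 0.16 (adjusted p 0.0209). Its relative Ulk1 had a log2 difference of 0.41 ± 0.16 that did not pass (adjusted p 0.0737), and the other Ulk1 probe gave 0.04.

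Wipi1, which binds the lipid mark on the forming membrane, had the largest rise of the 29 members. Raw signals were 686.9 and 689.9 in control, 1669.3 and 1626.4 in unstimulated, and 1481.5 and 1912.0 in stimulated cells. No starved array came near the control level. On the normalized log2 scale it went from 9.35 and 9.09 to 10.55 and 10.62, a 2.57-fold rise (log2 1.36 ± 0.15, adjusted p 0.000518), and its other probes gave 1.29 and 1.44. Uvrag, a partner of Beclin 1, rose 1.40-fold from 11.28 and 11.14 to 11.64 and 11.75 (adjusted p 0.0335). Becn1, the core of the lipid kinase complex, pointed the other way, at 9.26 and 9.75 in control and 8.94 and 9.11 in unstimulated cells. Its log2 difference of -0.48 ± 0.19 did not pass (adjusted p 0.0892), the groups did not overlap, and the other probe gave -0.54. Without control replicate 1 it was called lower, at -0.71 (adjusted p 0.0411).

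The conjugation enzyme genes among the members, Atg3 and Atg7, gave no calls, nor did Atg5, Atg12 and Atg16l1 of the same systems. Atg3 (the E2-like enzyme), Atg5, Atg7 (the E1-like enzyme), Atg12 and Atg16l1 had log2 differences between -0.10 and 0.32, with adjusted p-values from 0.119 to 0.914. Atg12 was the highest of these, at 10.47 and 10.41 in control and 10.71 and 10.82 in unstimulated cells. The groups of Atg7 and Atg16l1 overlapped. Atg4b, the protease that trims LC3, was detected on only 1 stimulated array, with signals of 90.9 to 115.8 over the 6 arrays.

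The LC3 and GABARAP genes, whose products are joined to the membrane, split into called and uncalled members. Map1lc3b was at 8.91 and 9.23 in control, 10.06 and 9.99 in unstimulated, and 10.43 and 10.11 in stimulated cells. The starved arrays were all higher than control, and the rise was 1.94-fold (log2 0.96 ± 0.17, adjusted p 0.00437). Map1lc3a rose 2.13-fold (log2 1.09 ± 0.29, adjusted p 0.0220) from 6.92 and 5.88 to 7.66 and 7.32. The control arrays of Map1lc3a lay far apart: without control replicate 1 the log2 difference was 1.61 and without control replicate 2 it was 0.57, and the highest adjusted p with 1 array left out was 0.127. Its other probe gave 1.22 ± 0.18 (adjusted p 0.00268 in the fit over probes). Gabarap rose 1.46-fold (adjusted p 0.0249), from 12.27 and 12.17 to 12.66 and 12.85. Gabarapl1 had a log2 difference of 0.31 ± 0.15 (adjusted p 0.145). Gabarapl2 was not well above background in control cells and passed the filter only through the starved arrays, so its fold is a bound of at least 1.21 (adjusted p 0.111). Sqstm1, which encodes the cargo receptor p62, rose 1.44-fold from 12.96 and 13.10 to 13.47 and 13.63 (adjusted p 0.0258).

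**Figure D1:**
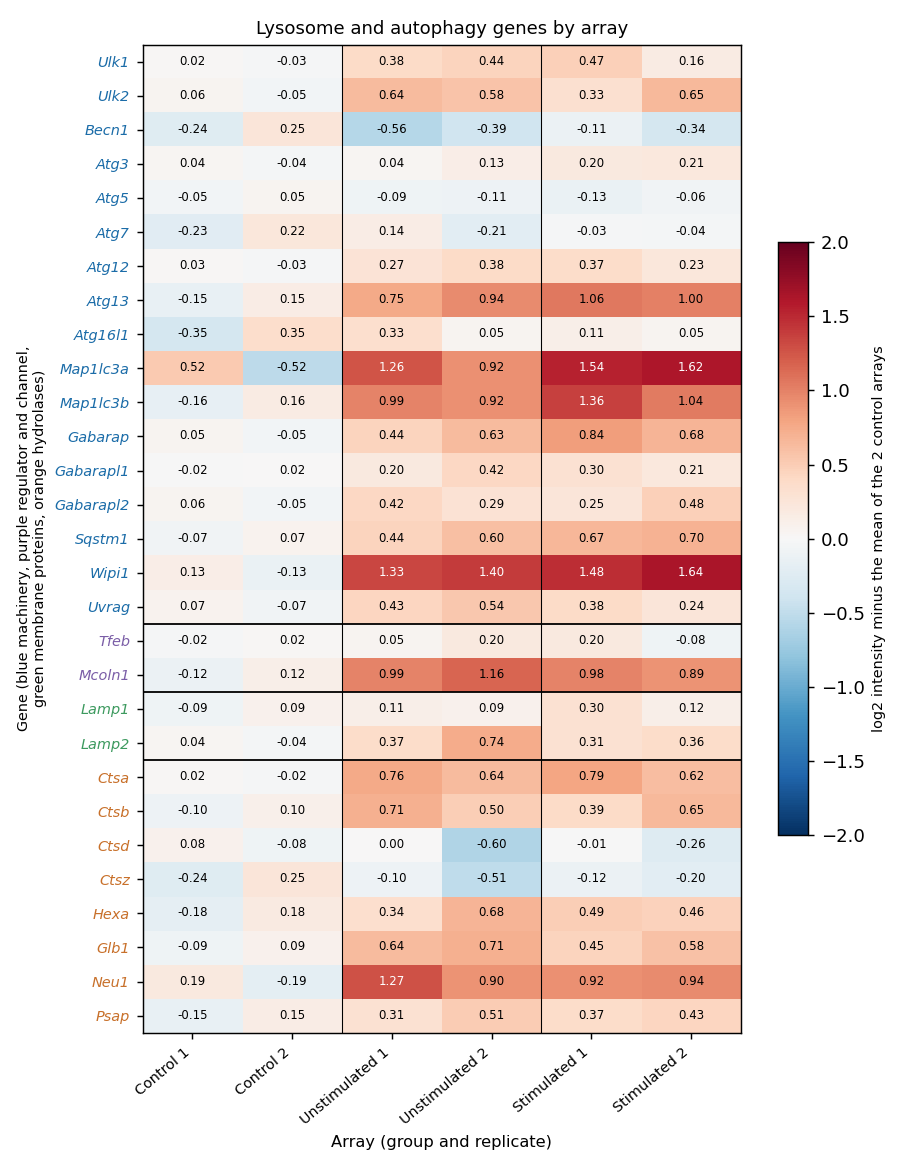
Normalized log2 intensity of each tested member on each of the 6 arrays, relative to its mean in control cells, with genes in rows by role and arrays in columns by group. Wipi1, Map1lc3a, Map1lc3b, Mcoln1, Neu1 and Atg13 are well above their control mean on all 4 starved arrays.

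Tfeb itself was near the limit of detection, with raw signals of 113.8 and 122.7 in control, 123.1 and 121.4 in unstimulated, and 115.0 and 109.6 in stimulated cells. Its log2 difference with starvation was 0.13 ± 0.16 (adjusted p 0.566). TFEB protein is known to be controlled by its location in the cell, which arrays do not measure. Mcoln1, the lysosomal calcium channel, went from 7.26 and 7.49 in control to 8.37 and 8.54 in unstimulated and 8.36 and 8.27 in stimulated cells. Each starved array was above both control arrays, and the rise was 2.12-fold (log2 1.08 ± 0.15, adjusted p 0.00153).

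The main structural proteins of the lysosomal membrane differed from each other. Lamp1, which holds the core 4 times in the promoter stretch shown above, was at 13.24 and 13.42 in control and 13.44 and 13.42 in unstimulated cells, a log2 difference of 0.10 ± 0.15 (adjusted p 0.636). Lamp2, with no CACGTG in its window, rose 1.47-fold (adjusted p 0.0317) from 12.62 and 12.54 to 12.95 and 13.32. Lamp2 has 5 tested probes, which the platform annotation assigns to 2 RefSeq transcripts. The probes were set side by side after their values were seen. The probes of the first transcript gave log2 differences of 0.55 and 0.28, and those of the second gave 0.94, 1.59 and 0.66. The probe with 1.59 went from 8.19 and 8.42 in control to 9.87 and 9.92 in unstimulated and 9.39 and 9.29 in stimulated cells. The difference between the transcripts was not tested.

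Among the hydrolases, 4 of 8 tested genes rose and 0 fell, beside 17.1% higher and 13.7% lower over all genes. At an unadjusted p below 0.05, 6 were higher and 0 lower, beside 2016 higher and 1762 lower of 8909 genes. Neu1, the lysosomal sialidase, was at 9.03 and 8.65 in control, 10.11 and 9.74 in unstimulated, and 9.76 and 9.78 in stimulated cells. The starved arrays were all higher, and the rise was 2.13-fold (log2 1.09 ± 0.19, adjusted p 0.00336). Ctsa encodes the protective protein that forms a complex with Neu1 and Glb1. It rose 1.62-fold (adjusted p 0.00776) from 8.90 and 8.86 to 9.64 and 9.52. Its other 4 probes gave smaller log2 differences of 0.19 to 0.54, none of them called (adjusted p 0.181 to 0.575 in the fit over probes). Glb1, the beta-galactosidase, rose 1.60-fold (adjusted p 0.00942) from 10.49 and 10.67 to 11.22 and 11.29 on its brighter probe.

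The second Glb1 probe moved the other way. The annotation assigns it to a cDNA outside the RefSeq mRNAs, and the split was described after the values were seen. It was at 6.88 and 6.72 in control, 6.02 and 6.23 in unstimulated, and not well above background in stimulated cells, where it was at least 2.33-fold lower than in control (adjusted p 0.00121 in the fit over probes). It passed the filter only through the control and unstimulated groups, where it is high. When both probes are averaged, the Glb1 log2 difference with starvation is 0.00.

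**Figure D2:**
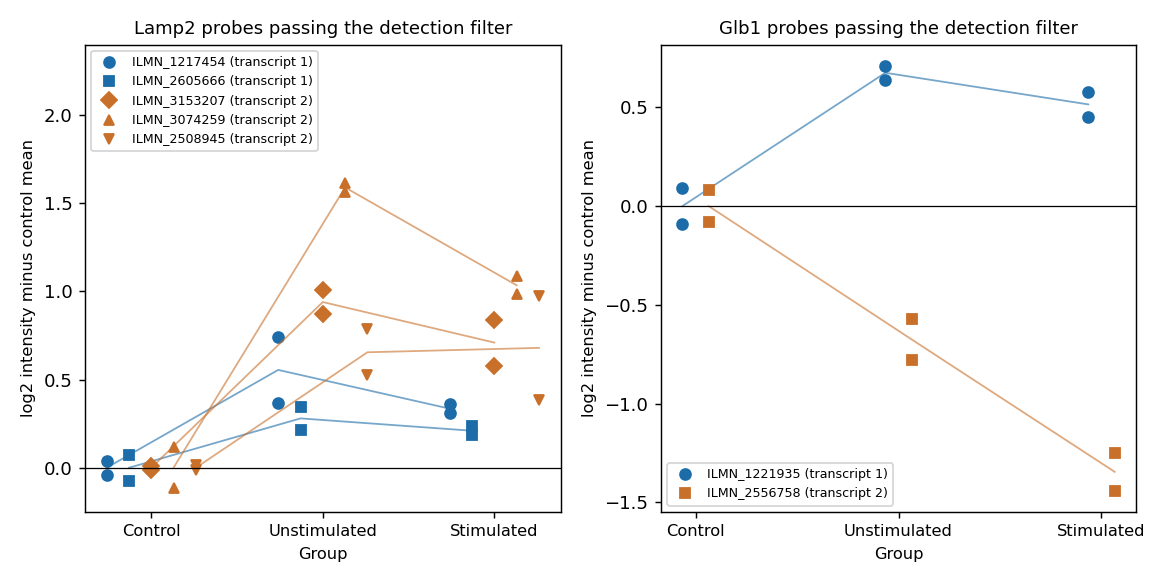
Normalized log2 intensity minus the control mean for each detected probe of Lamp2 (left) and Glb1 (right), by group, with 1 point per array and lines joining group means. All 5 Lamp2 probes are above control in both starved groups, whereas the 2 Glb1 probes part in opposite directions.

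The other hydrolases were less uniform. Ctsb, a cysteine protease, rose 1.52-fold from 12.93 and 13.13 to 13.74 and 13.53 (adjusted p 0.0241). Hexa, a subunit of beta-hexosaminidase, and Psap, the precursor of the saposins, had log2 differences of 0.51 ± 0.18 and 0.41 ± 0.16 that did not pass (adjusted p 0.0603 and 0.0866). Without control replicate 2, Hexa was called higher, at 0.69 (adjusted p 0.0486). Ctsd, an aspartic protease that holds the core 2 times in its promoter, was at 6.49 and 6.33 in control and 6.41 and 5.81 in unstimulated cells, with a log2 difference of -0.30 ± 0.21 (adjusted p 0.309). Ctsz had -0.31 ± 0.20 (adjusted p 0.277). The groups of both genes overlapped. Ctsl was detected on no array and Gla, alpha-galactosidase A, on 1 unstimulated array.

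Set side by side, the machinery and the hydrolases had like shares of calls. In unstimulated cells 8 of 17 machinery genes (47.1%) and 4 of 8 hydrolase genes (50%) rose, with median log2 differences of 0.41 and 0.56. Over all genes, 30.8% were called and 17.1% were higher, with a median of 0. The ranges of the machinery and the hydrolases, -0.48 to 1.36 and -0.31 to 1.09, cover each other for the most part. Members that rose held the core CACGTG in 3 of 12 promoters and members that were tested without a call held it in 5 of 12.

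**Figure D3:**
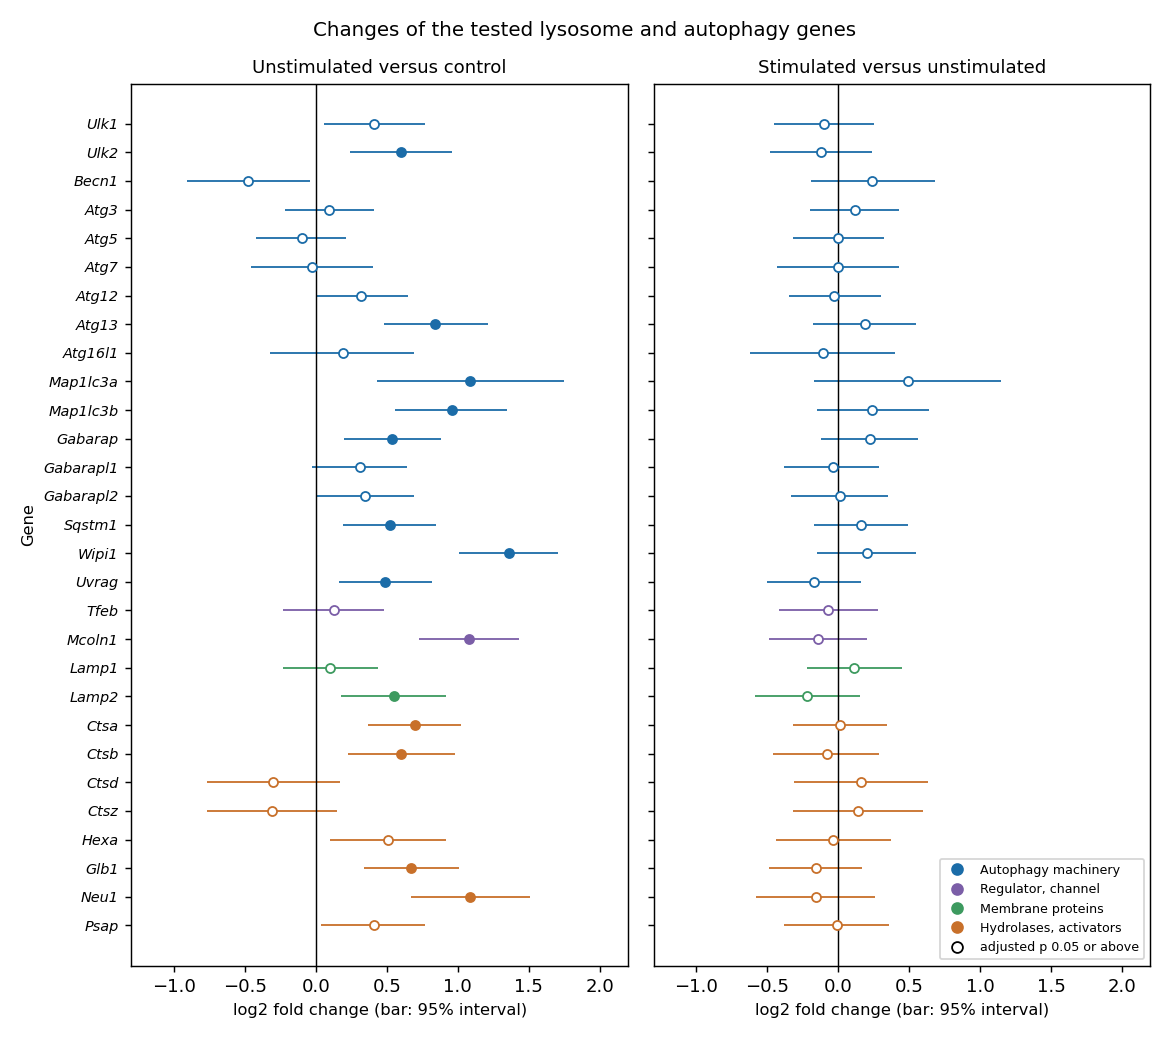
Log2 fold changes of the 29 tested members by role, with 95% confidence intervals, for each comparison. The intervals of stimulated minus unstimulated all contain 0, while 14 members are called higher in unstimulated minus control.

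Adding S100A8/A9 to starved cells gave no call in the set: 0 members rose and 0 fell (limma). On the probe chosen for each gene, 0 had an unadjusted p below 0.05. Over all genes 0.0786% were called and 730 had an unadjusted p below 0.05. The median log2 difference, stimulated minus unstimulated, was 0 over the members, 0.01 over the machinery and -0.02 over the hydrolases. The largest was Map1lc3a at 0.49 ± 0.29, with a 95% interval from -0.17 to 1.15 (adjusted p 0.710), and its other probe gave 0.03. All 29 intervals of the chosen probes contained 0. For 28 members the interval lay within a 2-fold change either way and for 22 within 1.5-fold. The groups of 13 members did not overlap, beside 38.5% of all genes. Wipi1 had a log2 difference of 0.20 ± 0.15 (interval -0.15 to 0.55), Mcoln1 -0.14 ± 0.15 (interval -0.49 to 0.20) and Neu1 -0.16 ± 0.19 (interval -0.58 to 0.26). Other probes of Wipi1 gave 0.05 and -0.61, the latter with an interval of -1.01 to -0.21. Intervals without 0 were also found for a further probe each of Lamp2 (-0.55), Glb1 and Ctsa. That Glb1 probe was at least 1.46-fold lower and that Ctsa probe at least 1.36-fold higher in stimulated cells. The Glb1 probe passed the filter only through control and unstimulated cells and the Ctsa probe only through stimulated cells. Each is high there, so neither adds support for a difference. None of these probes was called (adjusted p 0.328 to 0.402 in the fit over probes).

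Stimulated cells were also set against control, a comparison that shares the control arrays with the one above. In it 12 members (41.4%) rose and 0 fell. At an unadjusted p below 0.05, 15 were higher and 0 lower, beside 1916 higher and 1777 lower of 8909 genes. The groups of 23 members did not overlap, beside 65.8% of all genes. Gabarapl2, in the 15 and the 23, again passed the filter only through the starved groups, where it is high, and adds no support. Over all genes 29.1% were called, 15.9% higher and 13.2% lower. With median scaling in place of quantile normalization, the counts over all genes were 960 higher and 1292 lower, in place of 1417 and 1172. Atg13 was 2.04-fold higher (adjusted p 0.00222), Map1lc3b 2.30-fold (adjusted p 0.00161), Wipi1 2.95-fold (adjusted p 0.000255) and Mcoln1 1.92-fold (adjusted p 0.00279). Map1lc3a was 2.99-fold higher, Gabarap 1.70-fold and Sqstm1 1.61-fold. Of the hydrolases, Neu1 was 1.91-fold higher, Ctsa 1.63-fold, Glb1 1.43-fold and Ctsb 1.43-fold, and Ulk2 was higher by 0.48 ± 0.16 on the log2 scale (adjusted p 0.0492). On the probe chosen for each gene, Uvrag and Lamp2 were called against control in unstimulated but not in stimulated cells, with log2 differences in stimulated cells of 0.31 ± 0.15 (adjusted p 0.138) and 0.34 ± 0.16 (adjusted p 0.153). The 3 probes of the second Lamp2 transcript were called higher in stimulated cells (log2 0.71, 1.04 and 0.68, adjusted p 0.0149, 0.00285 and 0.0448 in the fit over probes), and the mean of all Lamp2 probes was too (0.60, adjusted p 0.011). Leaving out 1 array gave 8 to 11 calls: Sqstm1 was lost without control replicate 1 (adjusted p 0.0551), Glb1 in 4 of 6 fits, and Ulk2 and Ctsb in 5 of 6. The difference of Uvrag and Lamp2 between the starved groups was tested and did not pass (adjusted p 0.813 and 0.788).

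Beyond the members, 161 further genes of the pathway were listed by role, and 124 of them were tested. With starvation 41 rose and 1 fell, with a median log2 difference of 0.33. The share called in either direction, 33.9%, stood beside 30.8% over all genes, where 17.1% were higher and 13.7% lower. Of 29 other autophagy genes, 10 rose (34.5%). Trp53inp1, which encodes a p53-induced protein that binds LC3, was not well above background in control cells, and was at least 5.43-fold higher in unstimulated cells. It passed the filter only through the starved groups, where it is high, so its place among the 10 adds no support to the count. Its relative Trp53inp2 rose 5.27-fold and the mitophagy receptor gene Bnip3l had a log2 rise of 1.42 ± 0.14 (adjusted p 0.000275).

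Of 28 other hydrolase genes 12 rose (42.9%) and 0 fell, beside 30.8% called and 17.1% higher over all genes. Sgsh, counted among the 12, was not well above background in control cells and at least 1.15-fold higher in unstimulated cells. It passed the filter only through the starved groups, so its place among them adds no support to the count. Tpp1, a tripeptidyl peptidase, had a log2 rise of 1.13 ± 0.15, Idua, which acts on glycosaminoglycans, 1.12 ± 0.18, and Naglu, of heparan sulfate breakdown, 0.95 ± 0.16. Of 27 membrane and sorting genes 9 rose and 1 fell (37% called, beside the same shares over all genes). The cystine exporter gene Ctns had a log2 rise of 1.44 ± 0.15, the sorting receptor gene Sort1 1.13 ± 0.15, with -0.11 to 0.92 on its other probes, and Laptm4a 0.90 ± 0.14. Gnptab, which makes the mannose 6-phosphate tag of lysosomal enzymes, fell by 0.69 on the log2 scale (adjusted p 0.0126).

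Of 16 subunit genes of the vacuolar ATPase, which acidifies the lysosome, 3 rose and 0 fell (18.8% called). Over all genes, 17.1% were called higher and 30.8% in either direction. Those that rose were Atp6v0d1 by 0.87 ± 0.15, Atp6ap1 by 0.56 ± 0.18 and Atp6v0a2 by 0.53 ± 0.16 on the log2 scale. Of 24 genes of the TFE factors and of mTORC1 control at the lysosome, 7 rose and 0 fell (29.2% called, beside the same shares over all genes). Among them Sesn1, a stress-induced inhibitor of mTORC1, had a log2 rise of 1.10 ± 0.14 and Lamtor4, of the complex that holds mTORC1 on the lysosome, 0.75 ± 0.15. Sesn3 was not well above background in control cells and at least 1.41-fold higher in unstimulated cells, and it too passed the filter only through the starved groups. With 1 array left out, Atp6ap1 (0.44 to 0.69) was not called without any 1 of the control and unstimulated arrays, Atp6v0a2 without control replicate 1 (0.38) or either unstimulated array, and Gnptab without either control array (-0.69) or unstimulated replicate 1 (-0.56).

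None of these 124 genes was called between stimulated and unstimulated cells, where the lowest adjusted p was 0.262. Of the 124, 6 had an unadjusted p below 0.05, beside 730 of all 8909 genes. Against control, 41 rose and 3 fell in stimulated cells, or 35.5% called beside 29.1% of all genes (15.9% higher and 13.2% lower). Trp53inp1, Sgsh and Sesn3 are counted among the 41. They passed the filter only through the starved groups, where they are high, so they add no support to the count. In that comparison Calcoco1, an autophagy receptor gene, had a log2 rise of 1.79 ± 0.17 (adjusted p 0.000227), Smpd1, acid sphingomyelinase, 0.91 ± 0.14 and Sesn2 0.89 ± 0.15. Calcoco1 and Smpd1 were called higher in unstimulated versus control as well (log2 1.09 and 0.86, adjusted p 0.00246 and 0.0028). In stimulated versus control, some genes fell. The mannose 6-phosphate receptor gene M6pr fell by 0.92 on the log2 scale (adjusted p 0.0031, other probe -0.50), Stx17, which drives fusion with the lysosome, fell by 0.70 (adjusted p 0.0228, other probe -0.54) and Gnptab fell by 0.65 (adjusted p 0.0165). Neither Stx17 nor Gnptab was called without either control array, nor without stimulated replicate 2 for Stx17 (-0.47) and stimulated replicate 1 for Gnptab (-0.53).

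**Figure D4:**
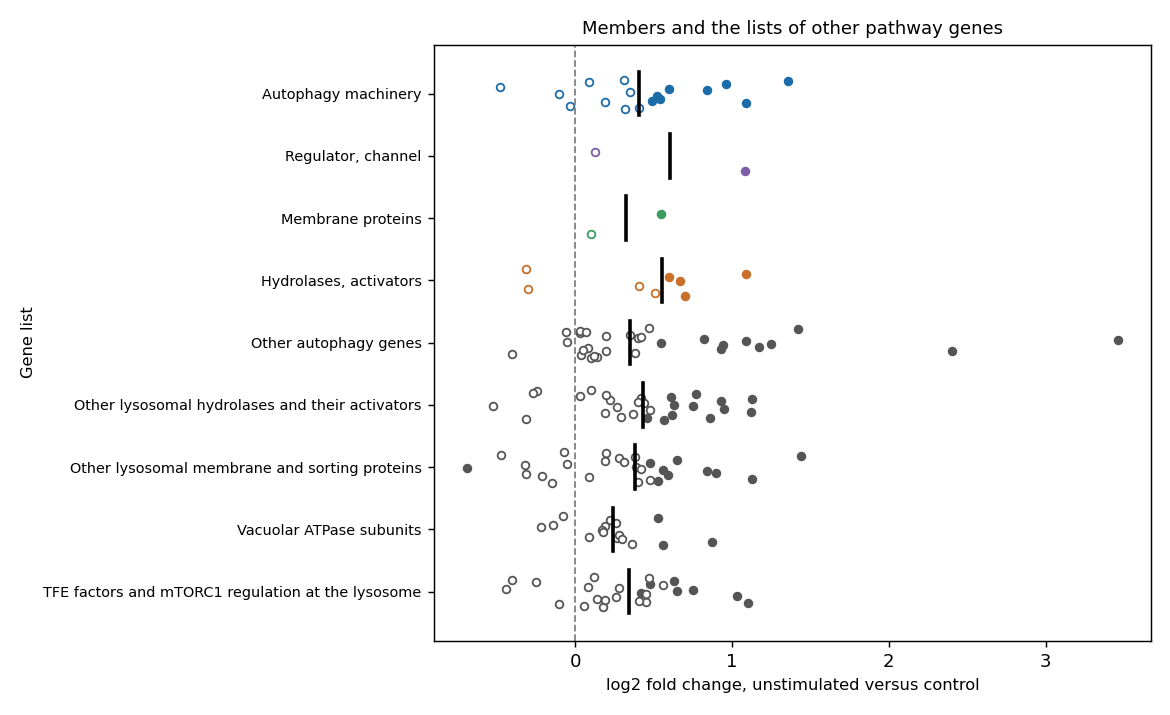
Log2 fold changes of unstimulated minus control for the tested genes of each list, the members and the other pathway genes, with 1 point per gene and the list median marked. The medians run from 0.24 for the vacuolar ATPase to 0.56 for the member hydrolases and 0.60 for the pair of Tfeb and Mcoln1, and the median over all genes is 0.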

How the data were processed

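Total RNA of 6 samples was measured on Illumina mouse bead arrays of 1 chip. Probe signals were deposited as linear intensities without background subtraction, the deposited detection p-values set each probe against the negative controls of its array, per the file headers, and a further deposited table holds log2 values, which equalled quantile-normalized log2 signals without background correction to within 0.00984. The bead summary software was not given in the sources used here. Precision is limited by the 2 arrays per group. Groups occupied neighbouring positions of the chip, and the effects of position and group cannot be told apart.

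In R 4.3.3 with limma 3.58.1, signals were corrected with normexp (offset 16), with negative controls derived from detection p-values, quantile-normalized and taken to log2. Of 45281 probes, 34885 had 1 symbol in the platform annotation, 18 several and 10378 none. A probe passed if detected at p below 0.01 on at least 2 of 6 arrays, which left 14157 with 1 symbol, and the probe with the highest mean stood for each of 8909 genes. One linear model over 6 arrays (3 residual and 6 prior degrees of freedom) gave the comparisons, with Benjamini-Hochberg adjustment over all 8909 genes. Calls have an adjusted p below 0.05. The steps were tested on simulated data. Where a group was undetected, the fold is a bound: the brighter group's mean is divided by that of the dim group, whose arrays are each raised to their lowest detected signal if the probe lies under it.

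The members and lists were chosen with earlier results of these data known. All members are named. Of each other list, up to 3 called genes per direction with the largest changes, non-overlapping arrays and detection on the 2 arrays of the group with more signal are named. Same-numbered arrays did not deviate together over genes (correlations -0.02, -0.04 and -0.01). These values cannot tell whether same-numbered samples were prepared together, and the labels do not say what a replicate number shares. The main fit used no pairing.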

Additional observations from a re-analysis of the deposited data

How the results depend on the processing

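In unstimulated versus control, 5 members (Atg13, Map1lc3b, Wipi1, Mcoln1, Neu1) kept their call in all 17 alternative fits, and in stimulated versus control 8 did (those and Map1lc3a, Gabarap and Ctsa). The count of members higher with starvation, 14, was 9 with median scaling, 8 with no detection filter and 6 to 14 when 1 array was left out (7 without control replicate 1, 9 without control replicate 2, 7 without unstimulated replicate 1, 6 without unstimulated replicate 2); leaving out an array leaves a group with 1 array, assumed to vary like the others. Machinery genes higher were 8, and 5, 4 and 3 to 8 under the same settings. Hydrolases higher were 4, and 2 to 5 with 1 array left out. The members lower were 0, and 1 (Becn1) without background correction, with an offset of 50, with the deposited log2 table, with an intensity trend and robust prior, and 0 to 1 with 1 array left out (without control replicate 1). The other pathway genes higher were 41, 27 with no filter and 23 to 41 with 1 array left out. Those lower were 1, and 3 without background correction, 2 with an offset of 50, 3 with the deposited table, 4 with the mean of probes, 2 with only the 4 arrays compared, 3 with the trend and 0 to 2 with 1 array left out.

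In stimulated versus control, members higher were 12 and 8 to 11 with 1 array left out. Members lower were 0, and 1 (Glb1) with the mean of probes. Hydrolases higher were 4, and 2 with median scaling, 2 with no filter and 2 to 3 with 1 array left out. The other pathway genes higher were 41, 27 with median scaling and 24 to 34 with 1 array left out, and those lower were 3, 6 with the mean of probes and 1 to 3 with 1 array left out. In stimulated versus unstimulated the members called were 0 in every fit. The other pathway genes higher were 0, and 1 (Slc11a2) without background correction, with an offset of 50, with the deposited table and with the trend. Those lower were 0, and 1 (M6pr) with the trend. With the mean of all probes, Glb1 was 0.00 with starvation (adjusted p 0.989) and -0.42 in stimulated versus control (adjusted p 0.0455), because its probes move in opposite directions. With the replicate block, members higher were 14 with starvation and 10 in stimulated versus control, and 0 between the starved groups; the block gave 39 and 35 other pathway genes higher. Median scaling moved the median of all genes to -0.13 in stimulated versus unstimulated and -0.11 in stimulated versus control. The share of all genes called with starvation, 30.8%, was 24.1% with median scaling and 10.4% with no detection filter. That share was also lower without any 1 of the control and unstimulated arrays, so fewer calls in these fits are not particular to the members. Hexa and Psap, not called with starvation, were called higher in 6 and 4 of the 17 fits. The cause of the other changes was not tested.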

Other observations

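Between stimulated and unstimulated cells, a pair of pathway genes was singled out after their values were seen. Slc11a2, which encodes an iron transporter of the endosomal and lysosomal membrane, was at a log2 intensity of 9.63 and 8.99 in unstimulated and 10.39 and 10.09 in stimulated cells, a difference of 0.93 ± 0.22 (adjusted p 0.262). M6pr was at 11.49 and 11.42 in unstimulated and 11.01 and 10.71 in stimulated cells, a difference of -0.59 ± 0.15 (adjusted p 0.301). The other M6pr probe did not show this fall: it gave 0.12 ± 0.18, and its groups overlapped. On the probe chosen for each gene, the groups of both genes did not overlap, and neither passed the test over all genes.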
